A study of Mus musculus with 10 samples.

Results

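Ask1, the p38 and JNK kinases and the kinases between them were followed as 10 genes in CD8+ dendritic cells (DCs) with and without the phosphatase Ppef2. The genes were taken by symbol from a list fixed by role: Map3k5, which encodes Ask1, its inhibitor Txn1, the kinases Map2k3, Map2k4, Map2k6 and Map2k7, the p38 and JNK genes Mapk14, Mapk8 and Mapk9, and the p38 target Mapkapk2. All 10 had a row in the deposited table of 10767 genes. Messenger RNA had been sequenced from splenic CD8+ cDC1, gated as CD11c+MHCII+CD8+CD11b- cells, of untreated Ppef2+/+ and Ppef2-/- mice. There were 5 libraries of each genotype from 5 sorts, each library from 3 pooled mice. Libraries of either genotype were paired into sorts 1 to 5 by replicate number and by their mirrored values, and the labels name no sort. The Ppef2-/- mice carried a knock-out first allele with a gene trap in front of the floxed exon, which is present in every cell of the animal and not in DCs alone. By the study's methods the mice were 8 to 13 weeks old, matched for sex and age between the groups, and the line had been crossed to C57BL/6.

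Ask1 is a MAP kinase kinase kinase that responds to oxidative and other stress. Reduced thioredoxin holds it inactive, and once released it phosphorylates MAP kinase kinases, of which Map2k3 and Map2k6 act on p38, Map2k7 on JNK and Map2k4 on either. PPEF2 is a calcium- and calmodulin-linked serine/threonine phosphatase for which Ask1 has been reported as a substrate. The comparison therefore asked whether loss of Ppef2 altered the transcript levels of the cascade. RNA levels say nothing of phosphorylation, protein amount or kinase activity, and in bulk cells fewer cells of a type and less RNA per cell cannot be told apart. By western blot, with data not shown, the study saw Ask1 changed neither in amount nor in phosphorylation in Ppef2-/- DCs.

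The values are normalized counts. In this table the libraries of a sort mirror each other, since the mean of each sort had been removed for every gene: what 1 library of a sort has above its genotype mean, the other has below it. The SDs of the genotypes are therefore equal in the values as deposited, and the difference within a sort is what they carry. For 9627 genes, 7 of the 10 among them, whole reads could be calculated back and the sort means put back. For Mapk14, Mapkapk2 and Txn1, with values of 1000 or more, they could not. Over the 9627 genes the Ppef2+/+ libraries held 1396295 to 2273524 reads and the Ppef2-/- libraries 1508367 to 4409545. Ppef2 itself had 95 to 228 reads in the Ppef2+/+ libraries and 0 to 8 in the Ppef2-/- libraries, which fits the labels of all 10. All 15 cDC1 markers were present, with summed levels of 78945.9 to 81764.0 in Ppef2+/+ and 79917.3 to 82735.5 in Ppef2-/- libraries. Of 6 T and NK cell markers 0 had a row and of 6 B cell markers 2 did, Cd79b and Ms4a1, with sums of 164 to 183 and 162 to 182. All 10 markers of cDC2, monocytes and macrophages had a row, with sums of 1555.2 to 1779.3 in Ppef2+/+ and 1539.5 to 1763.6 in Ppef2-/- libraries and 1 unadjusted p under 0.05. Of 7 erythroid and platelet markers 5 had a row (166 to 300 and 177 to 310, 1 unadjusted p under 0.05), and of 4 neutrophil markers 1 did (7.78 to 21.2 and 1.0 to 13.2). The summed level of the 4 pDC markers was 815 to 870 in Ppef2+/+ and 708 to 764 in Ppef2-/- libraries, with 2 unadjusted p under 0.05. Over all genes, 4.29% had such a p and 6.18% had deposited values that did not overlap between the genotypes. The marker sums are of deposited values, so their ranges leave out variation between sorts. The part of other cells in the results was not tested.

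For none of the 10 stress kinase genes was a difference between the genotypes detected. With limma and the sort as a block, 0 of 10 had an adjusted p under 0.05 and 0 of 10 an unadjusted p under 0.05. Over all genes the shares were 0.00929% (1 gene, Ppef2) and 4.29%, with 2.3% higher and 1.99% lower in Ppef2-/-. Without the block, the one-way model of the study's methods, the count was again 0 of 10 by either p, while 0.957% and 17.5% of all genes passed. The estimated difference was above 0 for 6 genes and below 0 for 4, with a median of 0.01 on the log2 scale compared to 0.0 over all genes. Its median size was 0.036, compared to 0.046 among the 3750 genes whose mean level lies in the range of these 10. The 95% intervals of the single genes, from limma with variances moderated over all genes, lay between 0.84-fold and 1.15-fold. They hold for 1 gene at a time and set no joint bound over the 10. The values of the genotypes overlapped for every one of the 10, whereas they were apart in 6.18% of all genes. An exact permutation of genotypes within sorts gave two-sided p-values of 0.312 to 1.0 for the 10 genes, where the smallest value 5 sorts allow is 0.0625.

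**Figure D1:**
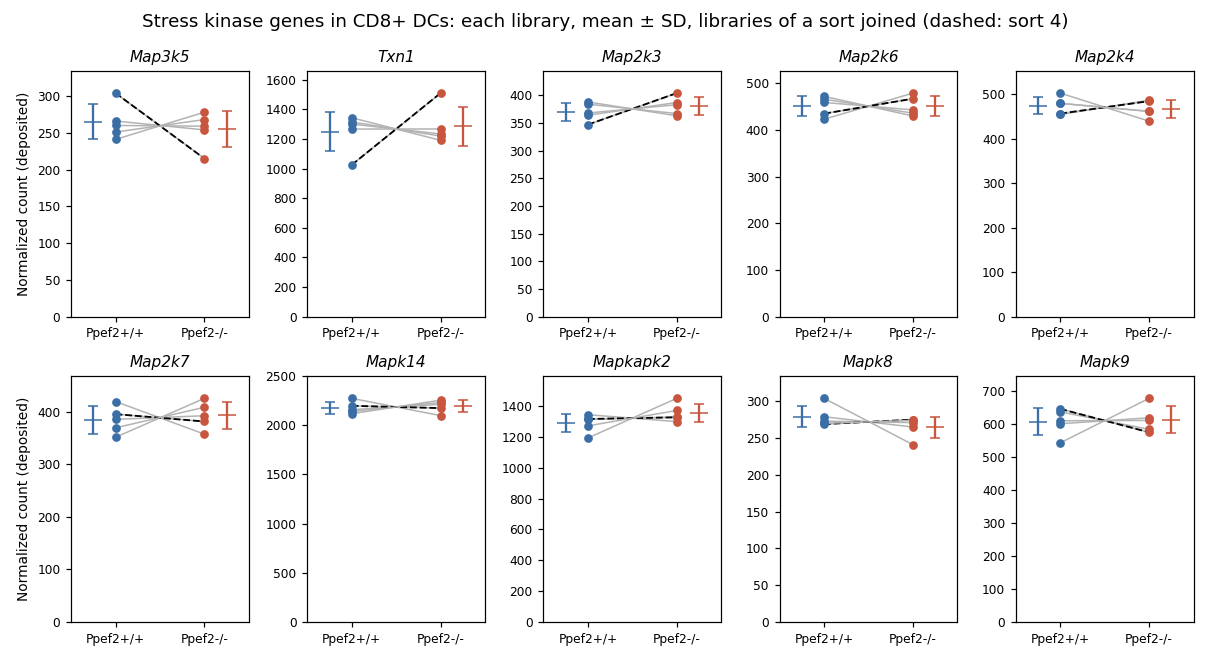
Deposited normalized counts (y axis, from 0) of the 10 genes in the 5 Ppef2+/+ and 5 Ppef2-/- libraries; lines join the libraries of a sort, the dashed line is sort 4, and the bars beside the points give mean ± SD. The genotypes overlap in every panel, the lines of a gene cross because sort means were removed, and sort 4 has the steepest line for Map3k5 (304 to 215) and Txn1 (1025.0 to 1510.4).

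Map3k5, the gene of Ask1, lies on chromosome 10 (19934472 to 20142753, plus strand, GRCm38). From sort 1 to sort 5, the normalized counts were 251, 266, 260, 304 and 241 for Ppef2+/+ cells and 268, 254, 259, 215 and 278 for Ppef2-/- cells. The Ppef2-/- library was the higher in 2 of 5 sorts, and only in sort 4 were the libraries far apart. The means were 265 ± 24.1 and 255 ± 24.1 (SD, n = 5 each), a log2 difference of -0.05 ± 0.09 (SE) with a 95% interval of -0.25 to 0.14 and an adjusted p = 0.995 in limma. Without sort 4 the difference was 0.06, so its sign rested on that sort, and with any other sort left out it was -0.12 to -0.05. The 10 libraries held 171 to 542 reads of Map3k5, 2790 in all. In sort 4 there were 331 Ppef2+/+ and 205 Ppef2-/- reads, a ratio of 0.708 with an exact 95% counting interval of 0.592 to 0.845, while in the other sorts the ratio was 0.953 to 1.15 and the interval held 1. Among the 3750 genes with a mean in the range of these 10, 69 (1.84%) were as far apart in sort 4. Map3k5 has the lowest mean of the 10, so this set holds no genes below its level. Sort 4 is also its widest sort, so the share does not measure how unusual the gap is.

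Txn1, the cytosolic thioredoxin that binds and restrains Ask1, is a gene on chromosome 4 (57943373 to 57956411, minus strand). Its Ppef2+/+ libraries had 1267.5, 1301.3, 1315.2, 1025.0 and 1343.9 normalized counts in sorts 1 to 5 and its Ppef2-/- libraries 1268.0, 1234.2, 1220.2, 1510.4 and 1191.5. Sort 4 again stood apart, now with the Ppef2-/- library on top, by 0.56 on the log2 scale. This distance was reached by 44 (1.17%) of the same 3750 genes, again for the widest sort of the gene. The means were 1250.6 ± 129 and 1284.9 ± 129 (n = 5 each), a difference of 0.04 ± 0.08 (95% interval -0.12 to 0.20, adjusted p = 0.996 in limma). With sort 4 left out the difference was -0.09, at an unadjusted p = 0.119 and an adjusted p = 0.932 in the limma fit. In sort 4, then, the kinase and its inhibitor lay on opposite sides of 0, and in sort 5 they did so the other way round, with log2 ratios of 0.20 for Map3k5 and -0.17 for Txn1. In sorts 2 and 3 both were below 0 (-0.07 and -0.01 for Map3k5, -0.08 and -0.11 for Txn1), and in sort 1 Txn1 was at 0.0. A relation between the 2 genes was not tested. Of the 50-base reads that Txn1 can give, 2.5% match the pseudogene Txn-ps1, so its count is uncertain by that share.

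By the pattern of the 5 within-sort log2 ratios, the genes most like Map3k5 among 3973 genes of similar level were Ccdc102a, Marveld1 and Snx9, with root mean square distances of 0.05, 0.08 and 0.08. Their ratios in sort 4 were -0.42, -0.54 and -0.41, so the likeness rests on that sort. Among the other 9 stress kinase genes Mapk14 was nearest (0.22) and Txn1 farthest (0.51).

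The MAP kinase kinases that act on p38 had close means in the genotypes. Map2k3 (MKK3, chromosome 11, 60932033 to 60952811, plus strand) had 384, 364, 388, 347 and 368 normalized counts in Ppef2+/+ sorts 1 to 5 and 367, 387, 363, 404 and 383 in Ppef2-/-. The difference was 0.04 ± 0.07 (95% interval -0.11 to 0.19, adjusted p = 0.995 in limma), and it was -0.0024 without sort 4. Map2k6 (MKK6, chromosome 11, 110399122 to 110525522, plus strand) had means of 451 ± 21.1 and 451 ± 21.1 (n = 5 each), with libraries of 423 to 472 and 430 to 479. The difference was -0.00098 with an interval of -0.15 to 0.14. Of the 10 genes, Map2k6 had means closest to each other, yet within single sorts its ratio was between 0.909 and 1.13.

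Of the kinases that act on JNK, Map2k4 (MKK4, chromosome 11, 65688243 to 65788297, minus strand) had 454 to 502 normalized counts in Ppef2+/+ and 439 to 486 in Ppef2-/- libraries, with a difference of -0.02 ± 0.07 (95% interval -0.16 to 0.12). Map2k7 (MKK7, chromosome 8, 4238740 to 4247897, plus strand) had 419, 351, 385, 395 and 369 in Ppef2+/+ and 357, 425, 392, 381 and 408 in Ppef2-/- sorts 1 to 5. The sorts went either way: the ratio of reads was 0.856 in sort 1 (interval 0.75 to 0.978) and 1.19 in sort 2 (1.04 to 1.37). The difference over all sorts was 0.03 ± 0.08 (95% interval -0.13 to 0.19, adjusted p = 0.997 in limma). Map2k7 shares 32.8% of its possible 50-base reads with the overlapping gene Gm49320, and how the counting split those reads is not given in the sources used here.

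Mapk14, the gene of p38α, lies on chromosome 17 (28691329 to 28748406, plus strand). It had 2141.6, 2275.1, 2160.3, 2199.3 and 2118.8 normalized counts in Ppef2+/+ and 2233.6, 2100.0, 2214.8, 2175.8 and 2256.4 in Ppef2-/- sorts 1 to 5. It was the gene with the narrowest interval of the 10, -0.09 to 0.11 on the log2 scale or 0.938-fold to 1.08-fold, around a difference of 0.01 ± 0.05 (adjusted p = 0.997 in limma). Mapkapk2 (MK2, chromosome 1, 131053700 to 131097826, minus strand) is a kinase that p38 phosphorylates and that stabilizes cytokine mRNAs. Its libraries had 1316.4, 1345.9, 1194.8, 1318.0 and 1273.7 in Ppef2+/+ and 1330.7, 1301.2, 1452.2, 1329.1 and 1373.4 in Ppef2-/-. The Ppef2-/- library was the higher in 4 of 5 sorts, by 0.28 on the log2 scale in sort 3 and by 0.11 or less in the others. With 0.07 ± 0.06 (95% interval -0.04 to 0.19, unadjusted p = 0.204 and adjusted p = 0.995 in limma) it had the smallest p of the 10. Its sign held with each sort left out, with a range of 0.02 to 0.10, and so did that of Mapk8 alone among the other 9.

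Mapk8, the gene of JNK1, lies on chromosome 14 (33377898 to 33447158, minus strand). Its Ppef2+/+ libraries had 304, 279, 273, 269 and 270 normalized counts and its Ppef2-/- libraries 241, 265, 271, 275 and 274. Only sort 1 was apart, with a read ratio of 0.793 (interval 0.676 to 0.932), and in the other sorts the ratio was 0.946 to 1.02. The difference was -0.07 ± 0.08 (95% interval -0.24 to 0.10, adjusted p = 0.995 in limma) and ranged from -0.10 to -0.01 with a sort left out. Mapk9, the gene of JNK2 (chromosome 11, 49846751 to 49886421, plus strand), had 610, 543, 637, 646 and 601 in Ppef2+/+ and 611, 678, 584, 575 and 619 in Ppef2-/- sorts 1 to 5. Sort 2 had a ratio of 1.26 (interval 1.12 to 1.41) and sort 4 of 0.895 (0.801 to 0.999), in opposite directions. Over the 5 sorts the difference was 0.01 ± 0.07 (95% interval -0.13 to 0.16, adjusted p = 0.997 in limma).

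**Figure D2:**
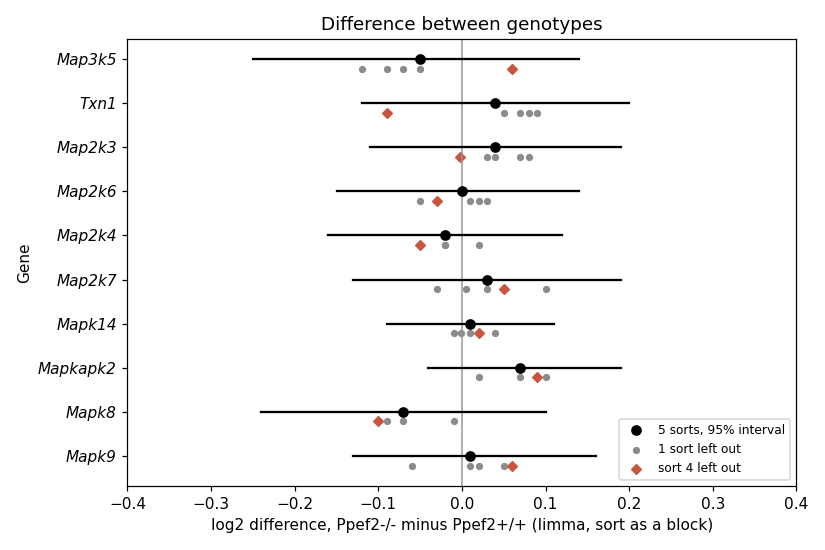
Log2 difference of Ppef2-/- minus Ppef2+/+ (x axis) for each gene; black points and lines give the limma estimate with its 95% interval over 5 sorts, small points the estimates with 1 sort left out and diamonds those without sort 4. Every interval spans 0, and without sort 4 the estimates of Map3k5, Txn1 and Map2k3 lie on the other side of 0.

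Within single sorts the 10 genes were 0.25 or more apart on the log2 scale 1, 2, 1, 2 and 0 times in sorts 1 to 5. These were Mapk8 in sort 1 (-0.33), Mapk9 and Map2k7 in sort 2 (0.32 and 0.28), Mapkapk2 in sort 3 (0.28), and Map3k5 and Txn1 in sort 4. In no gene did this occur in more than 1 sort. For genes with a mean in the range of these 10, the shares as far apart in sorts 1 to 5 were 8.59%, 10.2%, 13.4%, 16% and 11.2%. Among all genes they were 32.3%, 32.8%, 35.1%, 34.1% and 31.4%. The 7 genes with reads gave 35 ratios, of which 6 had an exact counting interval that left out 1, 2 above and 4 below it. Such intervals cover counting error only, and not the variation between pools of mice.

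With the sort means put back, the level of several of these genes moved from sort to sort in both genotypes. Mapk8 had 304, 252, 274, 316 and 249 in Ppef2+/+ and 241, 239, 272, 322 and 253 in Ppef2-/- sorts 1 to 5. The mean of both libraries was lowest in sort 2 (245) and highest in sort 4 (319), a 1.30-fold range. Map2k4 had 494, 414, 565, 471 and 425 in Ppef2+/+ and 476, 447, 502, 500 and 407 in Ppef2-/-, with sort means from 416 in sort 5 to 534 in sort 3. Map2k3 was highest in sort 4 in either genotype, at 401 and 459, and its sort means ranged from 347 to 430. For Mapk8, Map2k4 and Map2k3 the sort means had SDs of 29.0, 47.4 and 32.1, set beside mean differences of Ppef2-/- minus Ppef2+/+ of -13.5, -7.89 and 11. Whether sorts differ was not tested. Map2k6, Mapk9 and Map3k5 were steadier between sorts, with 1.06-fold, 1.11-fold and 1.14-fold ranges of their sort means. On this scale 0 of the 7 genes had genotypes that did not overlap, compared to 0.54% of the 9627 genes.

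**Figure D3:**
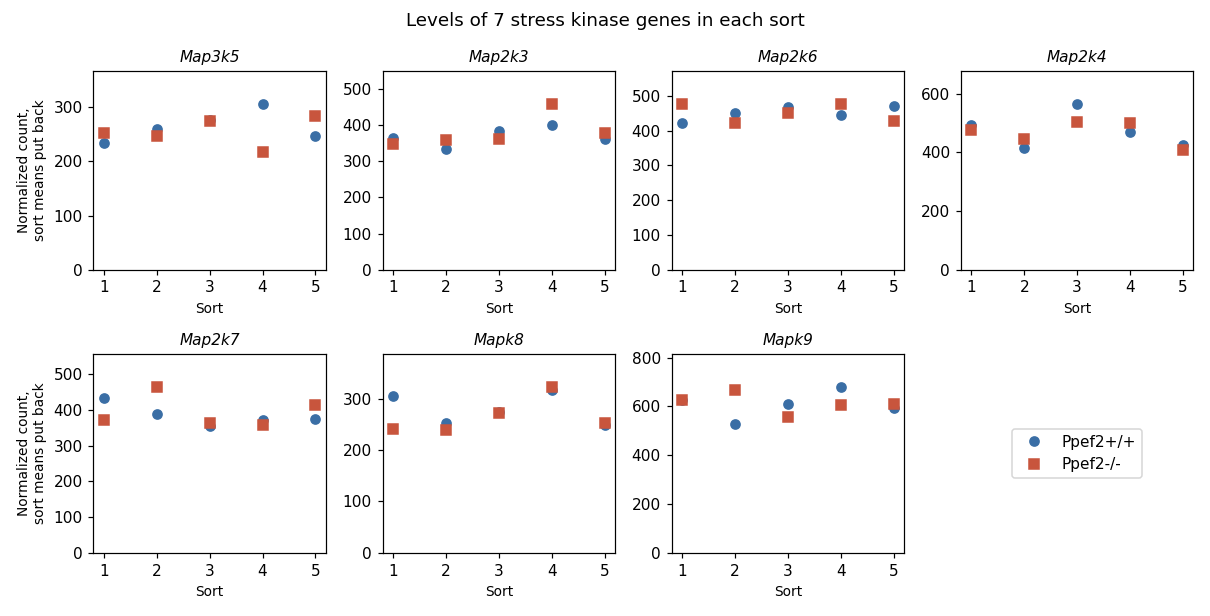
Normalized counts with the sort means put back (y axis, from 0) in sorts 1 to 5 (x axis) for the 7 genes with recovered reads; circles are Ppef2+/+ and squares Ppef2-/- libraries. Mapk8 (316 and 322) and Map2k3 are highest in sort 4 in both genotypes and Map2k4 in sort 3. The libraries of Mapk8 are apart in sort 1 (304 and 241), and Map3k5 has its libraries farthest apart in sort 4.

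Per kilobase of exon, Txn1 was the most abundant of the 10 and Mapk8 the least. In Ppef2+/+ libraries Txn1 had 1189.9 ± 123 normalized counts per kb, Mapk14 498 ± 14 and Mapkapk2 424 ± 19.4 (n = 5 each, as deposited). By the mean of all 10 deposited libraries, these 3 genes stood at the 98.3rd, 95.8th and 95.3rd percentile of the 10392 genes with a length. Their ranges did not overlap in the deposited values, which leave out variation between sorts, so this separation is not on the scale used for the genes below. The MAP kinase kinases followed close to each other, with Map2k6 at 131 ± 5.81, Map2k3 at 112 ± 7.47, Map2k4 at 102 ± 13 and Map2k7 at 100 ± 7.79, and then Mapk9 at 89.5 ± 7.96 (sort means put back). From Map2k3 down to Mapk9 each gene overlapped the next in its range over libraries, so this stretch has no firm order. Map3k5 had 43.5 ± 4.59 per kb and Mapk8 24.4 ± 2.64. By the same mean of all 10 libraries, Map3k5 stood near the middle of the genes with a length, at the 53.3rd percentile, and Mapk8 at the 37.0th. Of the MAP kinases, the JNK2 gene thus exceeded the JNK1 gene 3.47- to 4.01-fold per kb within each Ppef2+/+ library. In Ppef2-/- libraries the order was the same except that Map2k7 (103) stood before Map2k4 (100). With the longest transcript as length, the JNK2 gene exceeded the JNK1 gene by 2.53- to 2.93-fold, and Map3k5 and Mapk8 were level at 48.5 per kb each, so the rank of Mapk8 as the lowest depends on its long annotated exons.

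**Figure D4:**
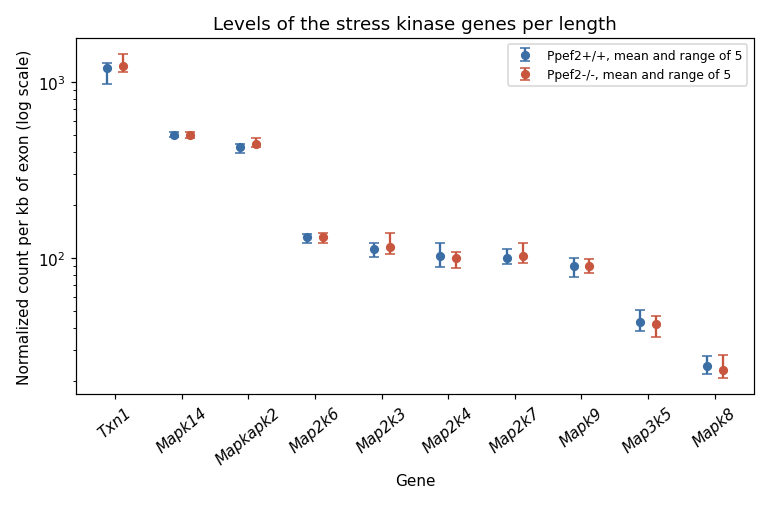
Normalized counts per kb of exon (y axis, log scale) of the 10 genes in order of their Ppef2+/+ mean; points are means and bars the range of 5 libraries per genotype. Txn1, Mapk14 and Mapkapk2 lie at 393 or above in the Ppef2+/+ libraries and Map3k5 and Mapk8 at 50.3 or below, and the genotypes overlap for each gene.

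The wider pathway was read from 7 lists of genes written by role, 85 genes of which 80 had a row. With an adjusted p under 0.05 there were 0 of 80. With an unadjusted p under 0.05 there were 5 of 80 (6.25%), 3 higher and 2 lower in Ppef2-/-, compared to the 4.29% of all genes. The median log2 difference of the 80 was 0.0, as it was over all genes.

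Among the kinases beside Ask1 at the head of the cascade, 1 of 15 had an unadjusted p under 0.05, compared to 4.29% of all genes. It was Map3k8 (Tpl2, a kinase that feeds ERK and JNK), with 349 ± 19.7 and 398 ± 19.7 normalized counts (n = 5 each). The difference was 0.19 ± 0.07, with an adjusted p = 0.995 in limma. With sort means put back Map3k8 ran from 219 to 445 in Ppef2+/+ and from 250 to 551 in Ppef2-/- libraries, with the higher value in Ppef2-/- in 5 of 5 sorts, where 6.18% of all genes had the same direction in each sort. Sort 3 had the widest gap, with a ratio of 1.27 on this scale and a log2 ratio of 0.45 in the deposited values. Without sort 3 the difference in the deposited values was 0.12 at an unadjusted p = 0.127 in limma. Map3k7 (TAK1) had 444 and 446, Map3k11 (MLK3) 455 and 439, and Map3k4 356 and 339 in Ppef2+/+ and Ppef2-/-. Map3k6, the gene of Ask2, had no row and could not be compared.

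Of the proteins that bind Ask1 or keep thioredoxin reduced, 0 of 19 had an unadjusted p under 0.05. Txnip, which binds thioredoxin, had 1422.2 ± 41.7 and 1425.4 ± 41.7, a difference whose interval ran from -0.11 to 0.11. Thioredoxin reductase Txnrd1 had 358 and 370, and the mitochondrial thioredoxin Txn2 498 and 496. The adaptors that turn Ask1 on, Traf2, Traf6 and Daxx, had 181 and 190, 495 and 488, and 300 and 291. Ppp5c, a phosphatase related to PPEF2 that dephosphorylates Ask1, had 468 ± 23.6 and 500 ± 23.6 (0.10 ± 0.07, unadjusted p = 0.179 and adjusted p = 0.995 in limma), the smallest p of this list. Ywhaz, an adaptor that binds phosphorylated Ask1, had 3465.5 and 3506.0.

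Other isoforms of p38 were low: Mapk11 (p38β) had 51.8 ± 9.05 and 49.8 ± 9.05 normalized counts and Mapk13 (p38δ) 44.4 ± 7.5 and 53.2 ± 7.5, with intervals of -0.46 to 0.34 and -0.14 to 0.66. Mapk12 (p38γ) and Mapk10 (JNK3) had no row and could not be compared. Of the scaffolds, 0 of 5 with a row had an unadjusted p under 0.05. Spag9 (JIP4) had 2218.7 and 2194.5, and Arrb2, with the smallest p of this list, 539 and 520.

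Among 21 effector kinases and substrates 2 had an unadjusted p under 0.05, compared to 4.29% of all genes. Hspb1 (Hsp27), a small heat shock protein that MK2 phosphorylates, had 107, 143, 124, 131 and 157 normalized counts in Ppef2+/+ and 108, 72.2, 91.0, 84.3 and 58.7 in Ppef2-/- sorts 1 to 5. It was lower in Ppef2-/- in 4 of 5 sorts and level in sort 1, with a difference of -0.69 ± 0.16 (95% interval -1.02 to -0.36). Its unadjusted p was 0.000334, the 5th smallest of 10767 genes, and its adjusted p = 0.622 in limma with the block and 0.0478 without it, so the call depends on the sort term. The reads behind it were 52 to 196 in Ppef2+/+ and 69 to 155 in Ppef2-/- libraries. With sort means put back, the ratios in sorts 1 to 5 were 1.01, 0.365, 0.759, 0.68 and 0.498. The widest gap was thus in sort 2 on this scale and in sort 5 in the deposited values. The counting interval held 1 in sort 1 (0.734 to 1.41) and in sort 3 (0.571 to 1.01). Rps6ka5 (MSK1), a chromatin kinase downstream of p38 and ERK, had 157 ± 6.7 and 135 ± 6.7 (-0.22 ± 0.10, unadjusted p = 0.0464 and adjusted p = 0.995 in limma). Rps6ka5 was lower in Ppef2-/- in 5 of 5 sorts, but it was picked from these same values. Of all genes, 6.18% had the same direction in each sort. With 1 sort left out its limma p was 0.0298 to 0.137. The other effectors named for their role had no unadjusted p under 0.05 over the 5 sorts: Jun, the transcription factor that JNK phosphorylates, had 14073.4 ± 1857.0 and 14943.3 ± 1857.0, Atf2 262 and 248, Mef2c 318 and 292, and Mapkapk3 212 and 204. The differences of Jun and Mef2c depended on single sorts. For Jun it was 0.23 instead of 0.09 without sort 4 (unadjusted p = 0.000979, adjusted p = 0.527 in limma). Without sort 3 it was -0.02 (unadjusted p = 0.824 in limma). For Mef2c it was -0.21 instead of -0.13 without sort 1 (unadjusted p = 0.0496, adjusted p = 0.998 in limma). Without sort 4 it was -0.02 (unadjusted p = 0.819 in limma).

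In the parallel ERK cascade 0 of 9 genes had an unadjusted p under 0.05. Mapk3 had 251 and 233 and Map2k1, with the smallest p, 559 and 604. Of 9 phosphatases that switch MAP kinases off, 2 had an unadjusted p under 0.05, compared to 4.29% of all genes. With so few genes, the count was not tested as a property of the list. Dusp2 had 655 ± 24.8 and 737 ± 24.8 normalized counts (0.17 ± 0.06, 95% interval 0.04 to 0.29, adjusted p = 0.995 in limma with the block and 0.0475 without it), and Dusp6 312 ± 11.3 and 349 ± 11.3 (0.16 ± 0.07, adjusted p = 0.995 in limma). In the deposited values either was higher in Ppef2-/- in 5 of 5 sorts, by 0.04 to 0.32 for Dusp2 and by 0.04 to 0.28 for Dusp6. Of all genes, 6.18% had the same direction in each sort. Both genes were picked from these same values, so their shared direction over sorts is no separate evidence. Neither held its unadjusted p under 0.05 with every sort left out in turn: the limma p reached 0.0617 for Dusp2 (without sort 5) and 0.128 for Dusp6 (without sort 3). With sort means put back Dusp2 ran from 510 to 864 over the Ppef2+/+ libraries. Dusp1 had 9501.7 ± 502 and 9804.3 ± 502, and Dusp16, which acts on JNK, 459 and 477.

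**Figure D5:**
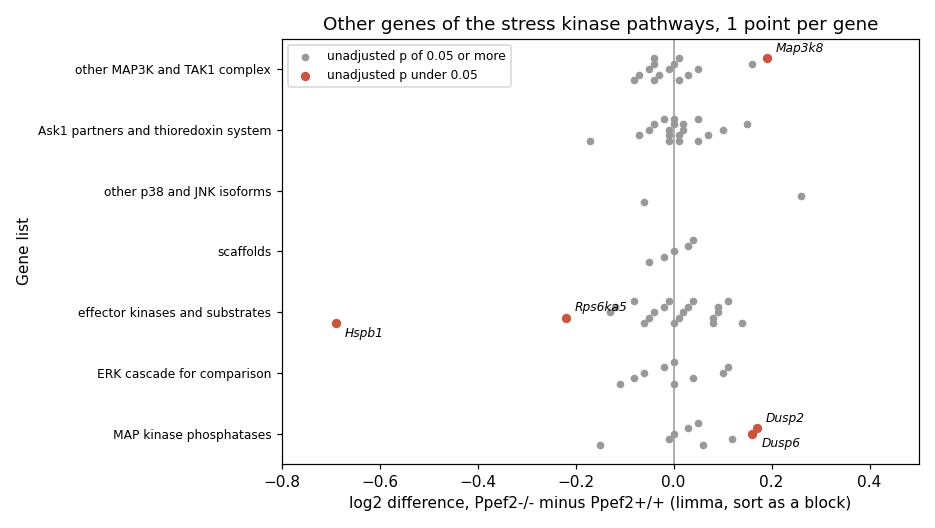
Log2 difference of Ppef2-/- minus Ppef2+/+ (x axis) for 80 genes of 7 pathway lists (rows), 1 point per gene from the limma fit with the sort as a block; named points have an unadjusted p under 0.05. Hspb1 at -0.69 lies apart from all others, which are between -0.22 and 0.26.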

How the data were processed

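CD8+ cDC1 of 5 sorts were sequenced as 10 poly-A libraries, grouped by genotype from the labels and by sort from replicate numbers and mirrored values. The authors counted 50 bp reads per RefSeq gene (mm10) in Partek 6.6 without strand, normalized them with DESeq2, set values below 1 to 1 and left out genes with a mean under 10 in both genotypes. The deposited values are thus a signal of normalized counts, not raw counts, and 0 columns were left unused. The aligner differs between sources (HISAT in the study's methods, TopHat2 2.0.3 in the submitters' processing notes), which may shift counts where genes share sequence.

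Sort numbers pair the libraries: in the 10721 genes that never reach the floor the libraries of a sort add to the same sum in each sort (relative spread at most 6.3e-06), and their deviations from the genotype means correlate at -1.0 in every sort. This pairing follows the replicate numbers and the mirrored values. That the shared batch is a sort is inferred, since the labels do not name it. The removal of sort means is not described in the sources used here. A model without the sort counts the differences within sorts as if libraries were independent, so the sort was a block in the main fit, and the study's one-way model was an alternative.

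Log2(value + 1) was fitted in limma 3.58.1 (R 4.3.3, eBayes with trend) on all 10 libraries, with Benjamini-Hochberg adjustment over 10767 genes. Members, lists and lists' named genes were chosen with earlier results of these data known. Named were all 10 members, Ppef2, pathway genes fixed by role (1 of them is not reported here), any list gene with an adjusted p under 0.05 and the smallest p of each list. Dusp6 and Rps6ka5 were added after their values were seen. Reads were calculated back as whole multiples of the value of 1 read less an amount per sort, with steps chosen on 557 genes with a mean under 16, where they covered 100.0% of genes compared to 88.5 to 99.6% for the next best pair. All 9627 genes with every value under 1000 then had exactly 1 set of reads. Ratios have exact Clopper-Pearson 95% intervals, which cover counting error only. Lengths and positions are GENCODE M21 on GRCm38, with a length for 10392 genes. Fits and reads were tested on simulated data. Alternatives were no block, pseudocounts of 0.5 and 10, means of at least 20 or 50, 2 rescalings, no trend, sort means put back, voom on reads and each sort left out. No protein or DNA sequence was used here. Libraries come from separate sorts of pooled mice.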

Additional observations from a re-analysis of the deposited data

Results flagged for a closer look

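Of 34 groups of 5 libraries, taken per gene, genotype and scale, 5 had a library farther from the others than Dixon's 95% limit allows, where chance gives about 1.7. In the deposited values the libraries of a sort mirror each other, so the pair of flags for Txn1 and the pair for Mapk8 are 1 deviation each. Txn1 in sort 4 had 1025.0 normalized counts in Ppef2+/+ (others 1267.5 to 1343.9) and 1510.4 in Ppef2-/- (others 1191.5 to 1268.0). Mapk8 in sort 1 had 304 in Ppef2+/+ (others 269 to 279) and 241 in Ppef2-/- (others 265 to 275). Map2k3 with sort means put back had 459 in the Ppef2-/- library of sort 4 (others 349 to 378). The cause of these deviations was not tested.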

How the results depend on the processing

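Of 151 alternative values for the 10 stress kinase genes, 139 kept their direction, 12 took the other sign and 0 had an adjusted p under 0.05, with a lowest adjusted p = 0.348 (Mapkapk2 without the block, limma). With each sort left out in turn the log2 differences ranged from -0.12 to 0.06 for Map3k5, -0.09 to 0.09 for Txn1, -0.0024 to 0.08 for Map2k3, -0.05 to 0.03 for Map2k6, -0.05 to 0.02 for Map2k4, -0.03 to 0.10 for Map2k7, -0.01 to 0.04 for Mapk14 and -0.06 to 0.06 for Mapk9. With voom on reads Map2k6 was at 0.0049. Of 432 values for named pathway genes 411 kept direction and call and 19 took the other sign, all with 1 sort left out, with ranges of -0.09 to 0.01 for Arrb2, -0.13 to 0.02 for Atf2, -0.09 to 0.03 for Daxx, -0.00014 to 0.09 for Dusp1, -0.03 to 0.11 for Dusp16, -0.02 to 0.23 for Jun, -0.11 to 0.01 for Map3k11, -0.03 to 0.06 for Map3k7, -0.19 to 0.12 for Mapk11, -0.05 to 0.00084 for Spag9, -0.07 to 0.04 for Traf6, -0.05 to 0.03 for Txn2, -0.02 to 0.03 for Txnip and -0.01 to 0.04 for Ywhaz.

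Without the replicate block the counts of all genes were 103 by adjusted and 1888 by unadjusted p, compared to 1 and 462, and those of the pathway lists 2 (Hspb1 and Dusp2) and 11, compared to 0 and 5. The adjusted count was 0 without a trend, where Ppef2 kept its -4.78 at an adjusted p = 0.865 in limma, 2 with sort means put back and the block, 2 with voom (Gp2 beside Ppef2 in each), and 1 to 4 with a sort left out, with 2 without sort 1 and 4 without sort 4. Sort means put back without the block gave 272 genes and 2 list genes by unadjusted p, and a sort left out gave 2 to 7 list genes, with 3 without sort 3 and 2 without sort 5. Dusp2, Dusp6, Map3k8 and Rps6ka5 each lost an unadjusted p under 0.05 with some sort left out, and with sort means put back and no block the limma p was 0.335 for Dusp2, 0.423 for Map3k8 and 0.0714 for Dusp6. The block changed no call of the 10 genes. By the longest transcript Map2k4, Map2k7 and Mapk9 ranked 7, 8 and 6 by level per kb. The cause of these shifts was not tested.

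Depth limits single sorts, where a library has as few as 171 reads of Map3k5 and the ratio an interval of 0.904 to 1.28. The recovered reads exclude Mapk14, Mapkapk2 and Txn1, so the distance of Txn1 in sort 4 has no counting interval. Counts sum all exons of a gene, and isoforms are not resolved.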
